A study of Anas platyrhynchos with 16 samples.

Results

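Receptors for serotonin, dopamine, noradrenaline and adrenaline, histamine and acetylcholine were examined in the hypothalamus and pituitary of ducks kept in cages or in a floor-water system. The receptors were taken by gene name, as every gene whose symbol marks it as a serotonin (HTR), adrenergic (ADRA, ADRB), dopamine (DRD), histamine (HRH), muscarinic (CHRM) or nicotinic (CHRN) receptor or subunit. There were 46 such genes among the 24263 measured: 13 serotonin, 5 dopamine, 7 adrenergic, 4 histamine and 4 muscarinic receptors and 13 nicotinic subunits. No expression value was used to choose them.

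RNA sequencing was done on Shanma ducks (Anas platyrhynchos) aged 113 days, with 4 libraries for each of caged hypothalamus, floor-water hypothalamus, caged pituitary and floor-water pituitary. The caged group was 15 ducks placed in 3 cages at day 110 and lit for 16 h daily, whereas the 15 ducks of the floor-water group had natural light. Both groups ate commercial feed, and no drug, allele or other agent is named for either. Housing and lighting therefore changed together and cannot be told apart. Whether libraries come from separate birds, and which cage a caged bird came from, is not stated, so p-values measure the spread between libraries only, which may be technical.

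These receptors carry the signals of neurons that release amines and acetylcholine, and neurons of the hypothalamus use them to adjust the hormones that drive the pituitary. The dopamine, adrenergic, histamine and muscarinic receptors and most serotonin receptors are G protein-coupled receptors that raise or lower cyclic AMP or activate phospholipase C, whereas nicotinic receptors and the HTR3 type are ion channels built of several subunits. In mammals dopamine from the hypothalamus restrains prolactin release through DRD2 on pituitary lactotrophs, and acetylcholine, serotonin and histamine act on several hypothalamic releasing-hormone neurons.

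Library totals ran from 38853215 to 67175356 counts. The receptors together took 706 to 898 CPM (counts scaled to a fixed library total) in hypothalamus and 314 to 552 in pituitary, where growth hormone (GH1) alone took 5.58% to 13.2% of counts. The tissue labels fitted their markers. Pituitary hormone and endocrine markers (13 of 15 found) summed to 167080 to 254960 FPKM (a unit in which the authors scaled fragments to gene length and sequencing depth) in pituitary. In hypothalamus they summed to 558 to 39834 FPKM, and neuron markers (6 of 11 found) to 2456 to 3783 against 215 to 456 in pituitary. Several libraries carried transcripts of neighbouring tissue. In caged hypothalamus libraries 1 to 4 the median pituitary marker stood at 5.24%, 0.108%, 6.61% and 22.6% of its pituitary mean. In floor-water hypothalamus libraries 1 to 4 it stood at 1.63%, 0.0654%, 0.413% and 0.408%. Caged libraries 1, 3 and 4 thus lay above every floor-water library. Caged hypothalamus library 2 held the choroid plexus transcript TTR at 20520 FPKM, against 8.61 to 662 in the others. Of the other choroid plexus markers (4 of 5 found in all), KCNJ13 was also highest there, at 0.622 FPKM. CLDN1, at 2.04, and OTX2, at 7.24, were not. In pituitary the median oligodendrocyte marker (5 of 8 found) stood at 4.91% of its hypothalamus mean in caged library 2, 3.92% in floor-water library 2 and 5.0% in floor-water library 4, against 0.121% to 0.364% in the other 5. Set aside together in an alternative run were 5 libraries: caged hypothalamus 2 and 4, caged pituitary 2, and floor-water pituitary 2 and 4. Caged hypothalamus libraries 1 and 3, which also carried pituitary transcripts, were kept. In bulk tissue, fewer cells of a type and less RNA per cell cannot be told apart.

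In hypothalamus 33 of the 46 receptors had a mean of at least 1 FPKM over the 8 libraries, and in pituitary 20 did. At the other end, 6 receptors in hypothalamus and 10 in pituitary had means under 0.1 FPKM. The heat map of levels shows the order of the families in each library.

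**Figure D1:**
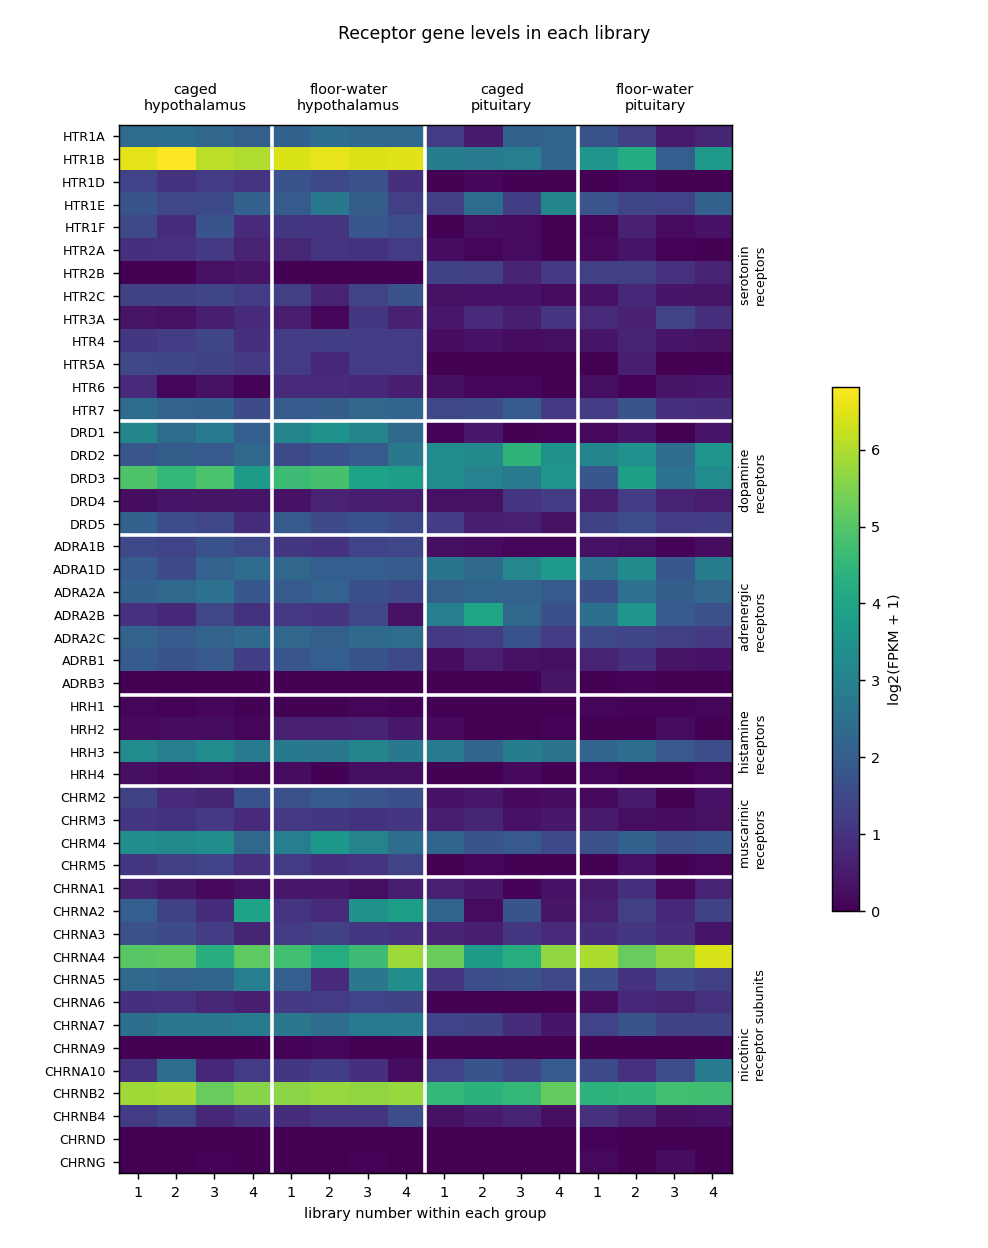
Levels of all 46 receptor genes (rows, grouped by family) in the 16 libraries (columns, by tissue and housing), as log2(FPKM + 1). HTR1B, CHRNB2 and CHRNA4 are the brightest rows in hypothalamus, whereas CHRNA4, CHRNB2 and DRD2 have the highest means in pituitary.

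The serotonin family held the highest receptor of the hypothalamus. HTR1B, an inhibitory receptor that in mammals acts on nerve endings as an autoreceptor, stood in caged hypothalamus at 91.3, 112, 70.0 and 62.8 FPKM and in floor-water hypothalamus at 85.3, 93.3, 87.7 and 88.3 FPKM (libraries 1 to 4). In pituitary it stood at 6.45, 5.86, 6.57 and 3.65 FPKM in caged libraries and at 10.9, 17.5, 3.09 and 11.6 FPKM in floor-water libraries. Every hypothalamus library was above every pituitary library, and the housing groups overlapped in both tissues. The mean was 86.3 ± 14.9 FPKM (SD, n = 8) in hypothalamus and 8.19 ± 4.82 (SD, n = 8) in pituitary.

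The other serotonin receptors were far lower. In hypothalamus the inhibitory receptor HTR1A averaged 3.96 ± 0.499 FPKM (SD, n = 8) and HTR7, which raises cyclic AMP, 3.31 ± 0.680. HTR1E, also inhibitory, averaged 2.76 ± 1.31 FPKM there. HTR1F, HTR1D, HTR2C, HTR5A and HTR4 lay between means of 1.3 and 1.59 FPKM in hypothalamus. HTR2C acts through phospholipase C and in mammals takes part in the control of feeding. In pituitary HTR1E averaged 2.96 ± 2.12 FPKM, HTR1A 1.69 ± 1.27, HTR7 1.67 ± 0.719 and HTR2B 1.16 ± 0.390 (SD, n = 8 each). HTR1A varied widely within pituitary, from 0.400 FPKM in caged library 2 to 3.58 in caged library 4. HTR3A, the channel-forming type, reached 1.63 FPKM in floor-water pituitary library 3, with means of 0.498 in hypothalamus and 0.814 in pituitary. HTR2A and HTR6 stayed under a mean of 1 FPKM in both tissues.

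The dopamine receptors were led in hypothalamus by DRD3, an inhibitory receptor of the DRD2 type. It had 29.6, 22.5, 28.8 and 12.1 FPKM in caged libraries and 24.3, 27.2, 14.6 and 12.9 in floor-water libraries. In pituitary DRD3 had 8.98, 7.07, 5.82 and 10.7 FPKM in caged libraries and 2.70, 13.4, 5.02 and 8.85 in floor-water libraries. DRD2 had 8.84, 8.30, 20.5 and 10.2 FPKM in caged and 7.54, 9.86, 4.37 and 10.9 in floor-water pituitary. Over the 8 pituitary libraries the means were 10.1 ± 4.69 FPKM for DRD2 and 7.82 ± 3.40 for DRD3 (SD), but DRD3 was the higher of the pair in 4 of the 8, and caged library 3 alone held DRD2 at 20.5. The hypothalamus libraries held DRD2 at 2.51, 3.01, 2.82 and 3.97 FPKM when caged and at 1.90, 2.27, 2.79 and 5.64 in the floor-water system. The DRD2 values of pituitary and hypothalamus did not overlap in CPM once library totals were rescaled by the TMM method. Without that rescaling they overlapped, in FPKM and in plain counts per library total. Floor-water hypothalamus library 4 held 1519 of 59413096 counts, and floor-water pituitary library 3 held 1281 of 65601674. DRD1 and DRD5, which raise cyclic AMP, averaged 6.35 ± 2.40 and 2.11 ± 0.718 FPKM in hypothalamus (SD, n = 8). DRD4, the remaining inhibitory type, averaged 0.355 ± 0.137 FPKM in hypothalamus and 0.709 ± 0.449 in pituitary.

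Among the adrenergic receptors taken by symbol, 3 alpha types, ADRA1D, ADRA2B and ADRA2A, led in pituitary. A gene listed by locus number and described as the beta-2 adrenergic receptor was in their range. That gene averaged 5.39 FPKM in caged and 6.93 in floor-water pituitary. ADRA1D, which acts through phospholipase C, averaged 6.46 ± 2.92 FPKM in pituitary and 3.18 ± 0.673 in hypothalamus (SD, n = 8). ADRA2B, an inhibitory type, stood at 6.58, 15.0, 3.88 and 2.19 FPKM in caged pituitary and at 4.68, 10.8, 2.82 and 2.25 in floor-water pituitary, with library 2 highest in each. In hypothalamus it ranged from 0.225 to 1.75 FPKM. ADRA2A, the main inhibitory autoreceptor of noradrenaline neurons in mammals, averaged 3.15 ± 1.0 FPKM in hypothalamus and 3.37 ± 0.809 in pituitary, and ADRA2C 3.66 ± 0.502 and 1.53 ± 0.388. ADRB1, a beta type, which raises cyclic AMP, averaged 2.42 ± 0.563 FPKM in hypothalamus and 0.394 ± 0.259 in pituitary. ADRA1B averaged 1.62 ± 0.406 and 0.145 ± 0.0720 FPKM. ADRB3 was near the detection limit, with 48 counts in all 16 libraries together, 31 of them from caged pituitary library 4.

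Among the histamine receptors taken by symbol, only HRH3 was abundant. In mammals it is the inhibitory autoreceptor of histamine neurons. HRH3 averaged 6.87 ± 1.35 FPKM in hypothalamus and 4.23 ± 1.51 in pituitary (SD, n = 8). A gene listed by locus number and described as a histamine H3 receptor had higher means in every group. For that gene the hypothalamus means were 18.1 FPKM when caged and 17.4 with floor-water housing. Its pituitary means were 7.36 and 7.16 in the same order. HRH1, HRH2 and HRH4 had means of 0.0349 to 0.319 FPKM in both tissues. All 4 muscarinic receptors in the table passed a mean of 1 FPKM in hypothalamus. The inhibitory CHRM4 averaged 7.61 ± 2.58 FPKM there and CHRM2, of the same type, 1.89 ± 0.830. CHRM5 and CHRM3, which act through phospholipase C, averaged 1.26 ± 0.279 and 1.07 ± 0.142 FPKM. In pituitary CHRM4 averaged 2.62 ± 0.609 FPKM and the other 3 averaged 0.0658 to 0.339 FPKM.

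The nicotinic subunits were led in both tissues by CHRNA4 and CHRNB2, which in mammals combine into the most common nicotinic receptor of the brain. CHRNB2 averaged 50.7 ± 7.08 FPKM in hypothalamus and 24.1 ± 5.02 in pituitary (SD, n = 8). CHRNA4 stood at 31.8, 33.5, 18.5 and 34.2 FPKM in caged and 26.0, 17.7, 24.4 and 55.9 in floor-water hypothalamus. In pituitary it stood at 38.2, 12.5, 17.9 and 50.6 FPKM when caged and at 61.7, 36.4, 51.0 and 83.0 in the floor-water system. CHRNA4 had the highest mean of the receptor genes in pituitary, but CHRNB2 was higher in caged libraries 2 and 3 (20.0 and 22.3 FPKM). The CHRNA4 libraries spread more widely there than those of CHRNB2.

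CHRNA2 varied widely within both hypothalamus groups, with 3.10, 1.49, 0.863 and 14.5 FPKM in caged and 1.07, 0.749, 10.2 and 13.0 in floor-water libraries. CHRNA7, which in mammals can form a channel on its own, was far more even at 5.47 ± 0.612 FPKM, and CHRNA5, an accessory subunit, averaged 4.54 ± 2.57 (SD, n = 8). CHRNA3, CHRNA10, CHRNB4 and CHRNA6 averaged 1.08 to 1.39 FPKM in hypothalamus. In pituitary CHRNA10 averaged 2.43 ± 1.57 FPKM, CHRNA5 1.71 ± 0.496, CHRNA7 1.41 ± 0.596 and CHRNA2 1.33 ± 1.19. The subunits of the muscle receptor and CHRNA9, a hair-cell subunit in mammals, were at the low end. CHRNA1 averaged 0.328 FPKM in hypothalamus and 0.399 in pituitary, and CHRNA9 averaged 0.0302 and 0.0104. CHRNG averaged 0.0121 and 0.0374 FPKM, and CHRND had 4 counts in floor-water pituitary library 1 and 0 in the other 15. That library held skeletal muscle markers (5 of 8 found) at 216 FPKM in sum, against 5.80 to 65.6 in the other pituitary libraries, and their part in the CHRND counts was not tested. A count of 0 allows up to 3 counts per library, and this limit covers counting error only.

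CHRNB4, CHRNA3 and CHRNA5 lie side by side in the deposited gene positions, with gaps of 122 bases between CHRNB4 and CHRNA3 and 136 bases between CHRNA3 and CHRNA5, the latter on the opposite strand. The sources used here do not give the strand setting of the counting, and 10 receptor genes overlap another annotated gene by at least 916 bases. Their reads may be shared. HRH2 lies wholly inside a locus on the same strand that is itself described as a histamine H2 receptor, HTR2B lies wholly inside PSMD1 on the opposite strand, and CHRM5 overlaps AVEN on the opposite strand. CHRNA6 overlaps no annotated gene, but the duck protein in its description is marked as low quality, as is that of HTR1A.

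The comparison of tissues asked where each receptor is more abundant. Of 43 receptors with enough counts to be tested (all but ADRB3, CHRND and CHRNG), 33 differed between pituitary and hypothalamus at an adjusted p under 0.05 (edgeR quasi-likelihood test, Benjamini-Hochberg over all genes, all 16 libraries). This was 76.7% of those tested, beside 66.5% of all 17010 genes tested. By direction, 26 receptors were higher in hypothalamus (60.5%, beside 32.5% of all genes) and 7 in pituitary (16.3%, beside 34.1%). The median log2 fold change, pituitary over hypothalamus, was -1.20 for the receptors and 0.05 for all genes. In CPM scaled by TMM, libraries of both tissues did not overlap for 17 receptors (39.5%, beside 37.5% of all genes). Of these, 14 were higher in hypothalamus (beside 19.9% of all genes) and 3 in pituitary (beside 17.6%).

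**Figure D2:**
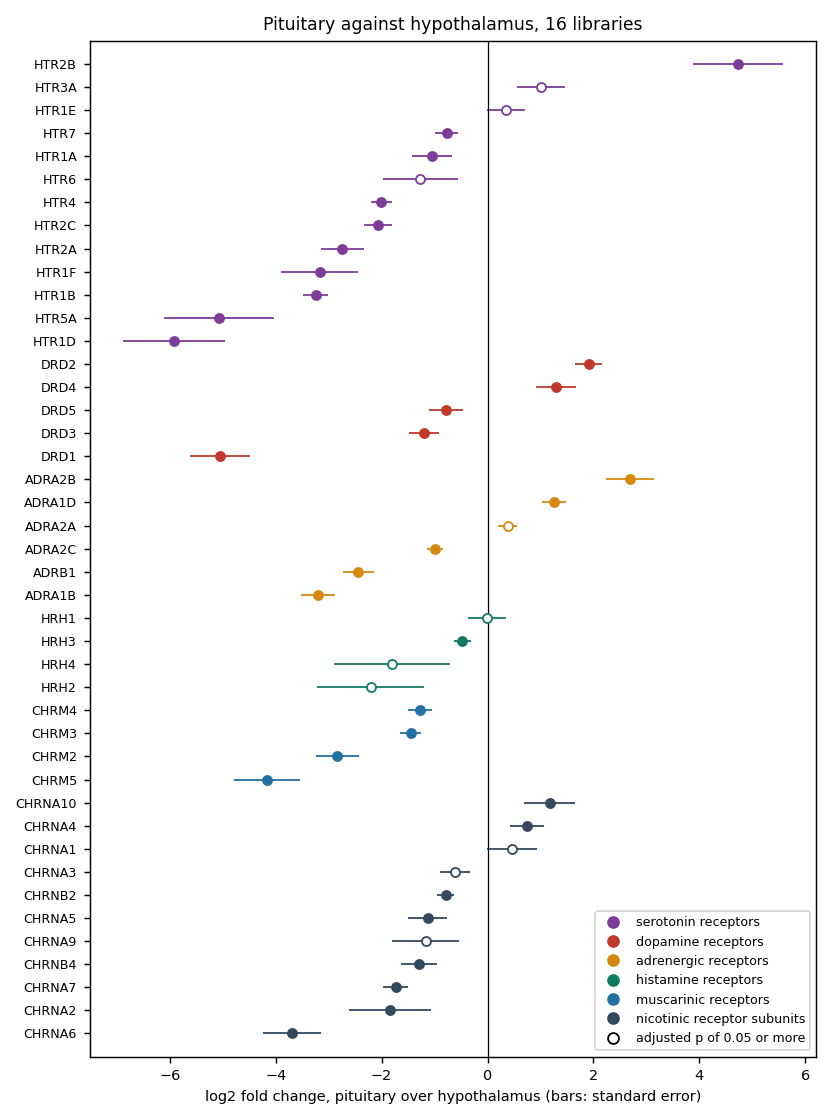
Log2 fold change of each tested receptor, pituitary over hypothalamus, with its standard error, grouped and coloured by family; filled points have an adjusted p under 0.05. Most points lie left of 0, and HTR2B, at 4.73, and ADRA2B, at 2.69, lie farthest to the right.

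Higher in pituitary were HTR2B, ADRA2B, DRD2, DRD4, ADRA1D, CHRNA10 and CHRNA4. HTR2B, a serotonin receptor that acts through phospholipase C, had 514, 523, 223 and 330 counts in caged and 437, 507, 357 and 194 in floor-water pituitary. In hypothalamus it had 0, 0, 75 and 65 counts in caged and 8, 0, 12 and 4 in floor-water libraries, so every pituitary library was above every hypothalamus library. Its log2 fold change was 4.73 ± 0.86 (SE, adjusted p = 0.0001513, edgeR). Caged hypothalamus libraries 3 and 4, the highest of that tissue for HTR2B, were also those with the most pituitary marker signal (6.61% and 22.6%). The part of that signal in the result was not tested.

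ADRA2B was higher in pituitary by 2.69 ± 0.46 on the log2 scale (SE, adjusted p = 8.568e-05, edgeR) and DRD2 by 1.91 ± 0.25 (adjusted p = 6.569e-06). Without the 5 libraries set aside for neighbouring tissue, ADRA2B was higher by 2.0. DRD4 (log2 fold change 1.29 ± 0.38), ADRA1D (1.26 ± 0.23), CHRNA10 (1.17 ± 0.49) and CHRNA4 (0.75 ± 0.31) were also higher in pituitary, with libraries that overlapped between tissues. Of these, CHRNA10 and CHRNA4 lay close to the threshold, with adjusted p-values of 0.0441 and 0.04667 in edgeR.

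Among receptors higher in hypothalamus, the serotonin group was the most numerous, with 9 of 13 tested. The other families had 6 of 11 nicotinic, 4 of 4 muscarinic, 3 of 5 dopamine, 3 of 6 adrenergic and 1 of 4 histamine, beside 32.5% of all genes. HTR1B was lower in pituitary by -3.24 ± 0.24 on the log2 scale (SE, adjusted p = 1.361e-08, edgeR), which was the smallest adjusted p of any receptor. HTR1D, an inhibitory receptor, had 304, 204, 292 and 159 counts in caged and 352, 339, 506 and 200 in floor-water hypothalamus. In pituitary it had 17 counts in caged library 2, 23 in floor-water library 2 and 0 in the other 6. Both libraries with HTR1D counts were among the 3 with the most oligodendrocyte marker signal. HTR5A, another inhibitory type, had 67 to 170 counts in hypothalamus, 57 in floor-water pituitary library 2, 4 in caged pituitary library 1 and 0 in the other 6. The log2 fold changes were -5.93 ± 0.96 for HTR1D (SE, adjusted p = 5.428e-05) and -5.06 ± 1.04 for HTR5A (adjusted p = 0.0004734, edgeR). Each rests on few pituitary counts. Without library 2 of either housing for HTR1D, or without floor-water library 2 or caged library 1 for HTR5A, a whole pituitary group is at 0 counts and the fitted fold has no finite size. In floor-water libraries alone HTR5A stood at -3.16 (adjusted p = 0.09428).

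HTR1F (-3.17 ± 0.72), HTR2A (-2.74 ± 0.41) and HTR4 (-2.0 ± 0.20) completed the serotonin receptors whose tissues did not overlap. HTR4 raises cyclic AMP, and HTR2A acts through phospholipase C. HTR2C, HTR1A and HTR7 were also higher in hypothalamus, by log2 fold changes of -2.06, -1.05 and -0.77 with overlapping libraries. HTR1E, at 0.34 ± 0.36 (adjusted p = 0.4168), HTR3A, at 1.01 ± 0.46 (adjusted p = 0.06269), and HTR6, at -1.27 ± 0.71 (adjusted p = 0.1269), did not pass the test.

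DRD1 was the dopamine receptor with the largest tissue difference. It stood at 7.76, 4.34, 6.11 and 3.13 FPKM in caged and 7.46, 10.4, 7.47 and 4.15 in floor-water hypothalamus. In pituitary it stood at 0.0503, 0.393, 0.0227 and 0.0471 FPKM when caged and at 0.114, 0.324, 0.0350 and 0.297 in the floor-water system. The 3 pituitary libraries above 0.29 FPKM were those with the most oligodendrocyte marker signal. In them DRD1 reached 6.19%, 5.10% and 4.67% of its hypothalamus mean, beside 4.91%, 3.92% and 5.0% for the median oligodendrocyte marker (caged 2, floor-water 2 and floor-water 4). The log2 fold change was -5.06 ± 0.57 (SE, adjusted p = 1.107e-06, edgeR) and -6.72 without the 5 libraries set aside for neighbouring tissue. DRD3 (-1.20 ± 0.29) and DRD5 (-0.79 ± 0.32) were also higher in hypothalamus, with overlapping libraries.

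The same ordering of pituitary libraries was seen for few receptors. In 5 of the 39 receptors tested within pituitary (12.8%, beside 6.4% of all genes tested there), the 3 libraries rich in oligodendrocyte markers were all above the other 5. These 5, named after their values were seen, were ADRA2A, CHRM2, CHRM5, DRD1 and HTR1F. The lowest rich library and the highest other library were close for CHRM2 (0.2661 and 0.2655 FPKM) and ADRA2A (3.55 and 3.45). They stood at 0.192 and 0.158 FPKM for HTR1F, 0.297 and 0.114 for DRD1, and 0.0825 and 0.0284 for CHRM5. In the other 5 libraries alone, the mean level relative to hypothalamus was 0.846% for DRD1, 1.49% for CHRM5, 4.62% for HTR1F and 7.57% for CHRM2, whereas ADRA2A stood at 93.3% and DRD2 at 331%. The plot of pituitary levels relative to hypothalamus sets both patterns beside the marker signal, whose part in the tissue differences was not tested.

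**Figure D3:**
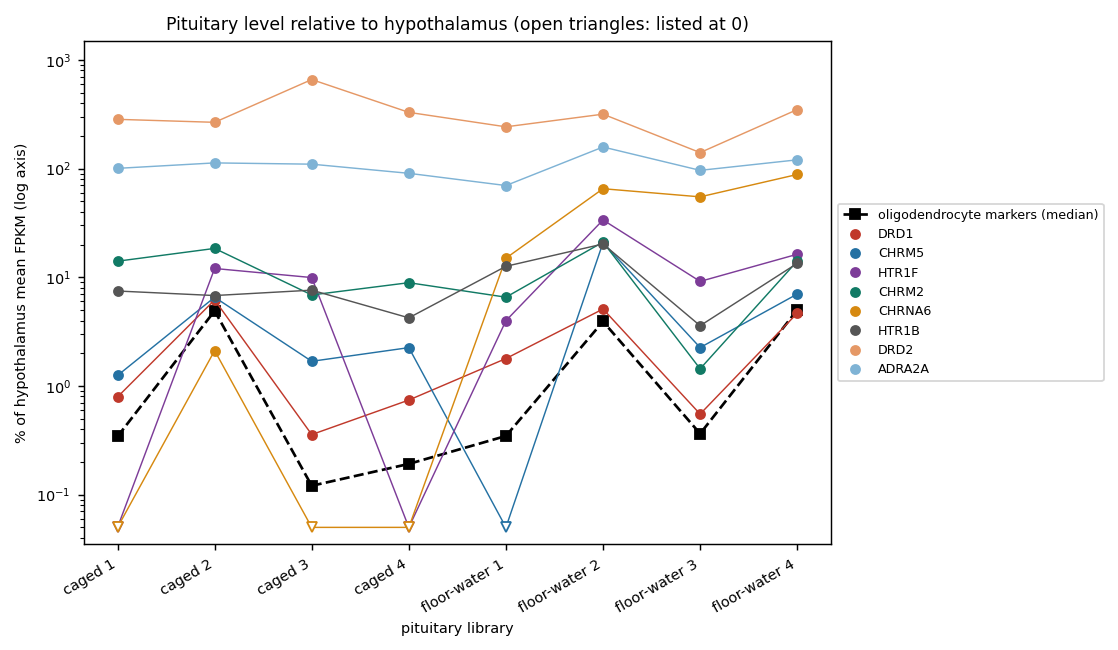
Level of 8 receptor genes in each pituitary library as a percentage of the gene's mean FPKM in hypothalamus, on a log axis, with the median of 5 oligodendrocyte markers as black squares; open triangles at the lower edge mark libraries with no count. DRD1 follows the squares in caged 2, floor-water 2 and floor-water 4, whereas ADRA2A lies at 69.8% or more and DRD2 above 100% in all 8 libraries.

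All 4 muscarinic receptors were higher in hypothalamus. The log2 fold changes were -4.16 ± 0.62 for CHRM5, -2.84 ± 0.41 for CHRM2, -1.45 ± 0.20 for CHRM3 and -1.27 ± 0.22 for CHRM4 (SE). CHRM4, the most abundant of them, overlapped between tissues in CPM scaled by TMM, and the other 3 did not. In FPKM CHRM4 did not overlap (at least 3.90 in hypothalamus and at most 3.70 in pituitary). Without the 5 libraries set aside for neighbouring tissue, CHRM5 stood at -5.77 and CHRM2 at -3.55.

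Of the adrenergic receptors, ADRA1B (-3.20 ± 0.31, adjusted p = 2.634e-07), ADRB1 (-2.44 ± 0.29, adjusted p = 2.42e-06) and ADRA2C (-0.99 ± 0.14, adjusted p = 1.811e-05, edgeR) were higher in hypothalamus with no overlap. ADRA2A, at 0.39 ± 0.18 (adjusted p = 0.0695), did not pass. The histamine receptor HRH3 was higher in hypothalamus, at -0.47 ± 0.16 (adjusted p = 0.01378). HRH2, HRH4 and HRH1 were not called, at -2.21, -1.81 and -0.01 with SEs of 1.01, 1.10 and 0.36.

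Nicotinic subunits differed in both directions. CHRNA7 was higher in hypothalamus without overlap, at -1.74 ± 0.24 (SE, adjusted p = 9.832e-06, edgeR). CHRNA6 (-3.69 ± 0.55), CHRNA2 (-1.84 ± 0.77), CHRNB4 (-1.3 ± 0.34), CHRNA5 (-1.12 ± 0.37) and CHRNB2 (-0.79 ± 0.16) were also higher in hypothalamus, with overlapping libraries. In FPKM, without the TMM scaling, CHRNB2 did not overlap (at least 36.4 in hypothalamus and at most 35.3 in pituitary). CHRNA4 and CHRNB2, partners in the mammalian brain receptor, were called in opposite directions. For CHRNA4 the group means were 29.5 FPKM in caged hypothalamus and 29.8 in caged pituitary, and 31.0 in floor-water hypothalamus and 58.0 in floor-water pituitary. A cage effect differing between tissues was not called for it (log2 difference -0.79 ± 0.63, SE, adjusted p = 0.9086, edgeR). CHRNA3, CHRNA1 and CHRNA9 did not pass the test.

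Genes that supply and carry the signals of these receptors were described by counts. Of 19 genes of amine and acetylcholine synthesis, transport and breakdown found among 23 listed, 10 were higher in hypothalamus (beside 32.5% of all genes tested) and 4 in pituitary (beside 34.1%). Their median log2 fold change was -1.15, beside 0.05 for all genes. The 3 with the smallest p toward hypothalamus were SLC18A3, the vesicular acetylcholine transporter (-5.09 ± 0.77), SLC6A2, the noradrenaline transporter (-5.76 ± 0.89), and TH, the rate-limiting enzyme of catecholamine synthesis (-6.03 ± 1.13). Toward pituitary they were BCHE, a cholinesterase (1.60 ± 0.16), GCH1, the first enzyme of tetrahydrobiopterin synthesis (2.94 ± 0.45), and QDPR, which regenerates that cofactor (0.37 ± 0.09). In FPKM QDPR averaged 95.8 and 79.2 in caged and floor-water hypothalamus, and 92.1 and 95.7 in pituitary.

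Of 28 G protein and effector genes found among 41, 17 were higher in hypothalamus and 2 in pituitary, beside the same 32.5% and 34.1% of all genes (median -0.76). PLCB1 (-3.21 ± 0.17), PLCB4 (-3.34 ± 0.20) and ADCY3 (-2.14 ± 0.14) had the smallest p toward hypothalamus, and ADCY9 (1.01 ± 0.08) and GNAI2 (0.73 ± 0.11) were higher in pituitary. PLCB1 and PLCB4 are phospholipases C and ADCY3 and ADCY9 adenylyl cyclases. Of 5 receptor kinase and arrestin genes found among 9, GRK5 (-2.66 ± 0.17) and GRK4 (-0.53 ± 0.15) were higher in hypothalamus and GRK6 (0.44 ± 0.17) and GRK2 (0.32 ± 0.13) in pituitary. The shares of all genes beside them were the same 32.5% and 34.1%. GRK2 lay close to the threshold (adjusted p = 0.0452, edgeR). In FPKM it averaged 21.6 and 22.4 in caged and floor-water hypothalamus, and 22.7 and 22.6 in pituitary. Of 7 tested nicotinic assembly and modulator genes (8 found among 10), RIC3, a chaperone of nicotinic subunits (-1.49 ± 0.10), LYPD6 (-4.90 ± 0.49) and LYPD6B (-2.41 ± 0.37) were higher in hypothalamus and LYPD1 (0.59 ± 0.15) in pituitary.

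The comparison of caged with floor-water ducks in hypothalamus called no receptor. None of the 43 tested receptors had an adjusted p under 0.05, the smallest being 0.3935, and neither did any of the 15736 genes tested (0%, edgeR). DESeq2 called 0 of 45 receptors and 243 of 19991 genes. At an unadjusted p under 0.05 in edgeR there were 4 receptors, all lower in caged birds. They were 9.3% of those tested, beside 9.3% of all genes in either direction and 3.65% lower in caged birds. The fold change was below 0 for 31 of 43 receptors (72.1%, beside 49.3% of all genes), with a median of -0.10 for the receptors and 0.00 for all genes. Without caged hypothalamus library 4, the one richest in pituitary transcripts, it was below 0 for 24 receptors and the median was -0.04. With the pituitary marker signal as a covariate it was below 0 for 25 receptors, with a median of -0.09. That signal was also higher in caged libraries 1 and 3 than in any floor-water library, and its part in these fold changes was not tested. By family, in the fit with library 4 included, the fold change was below 0 for 11 of 13 serotonin receptors and 9 of 11 nicotinic subunits. It was below 0 for 4 of 5 dopamine, 3 of 6 adrenergic, 2 of 4 histamine and 2 of 4 muscarinic receptors.

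**Figure D4:**
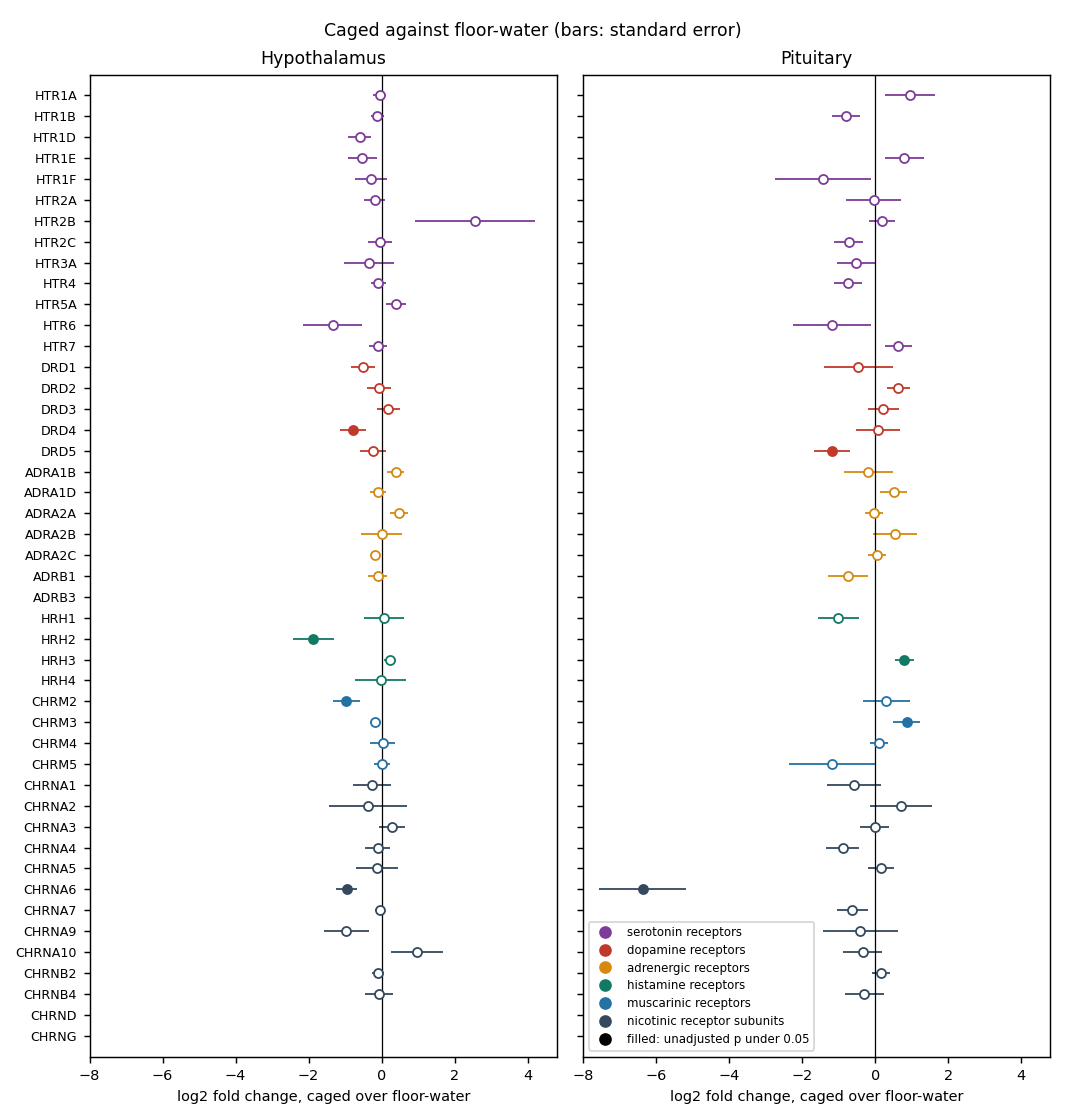
Log2 fold change, caged over floor-water, of each tested receptor in hypothalamus (left) and pituitary (right), with its standard error, coloured by family; filled points have an unadjusted p under 0.05. In pituitary CHRNA6 lies far to the left at -6.37, and most other points of both panels lie within 1 unit of 0.

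The 4 receptors with the smallest p in hypothalamus came from 4 families. HRH2, the histamine receptor that raises cyclic AMP, had 7, 9, 11 and 4 counts in caged and 21, 29, 38 and 23 in floor-water libraries. Every caged library was below every floor-water library, at a log2 fold change of -1.87 ± 0.55 (SE, adjusted p = 0.3935, edgeR). The locus that contains it averaged 1.43 ± 1.06 FPKM in the caged group and 2.34 ± 0.530 in the floor-water group (SD, n = 4), and reads of both cannot be told apart.

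CHRNA6, a nicotinic subunit that in mammals is found mainly in catecholamine neurons, stood at 0.875, 0.970, 0.655 and 0.484 FPKM in caged and 1.19, 1.33, 1.58 and 1.51 in floor-water hypothalamus. The groups did not overlap, and the log2 fold change was -0.95 ± 0.29 (SE, adjusted p = 0.4005, edgeR). HRH2 and CHRNA6 were the only tested receptors without overlap in hypothalamus, 4.65% of 43. Among all genes tested there, 5.69% were without overlap in either direction, and 2.29% were without overlap and lower in caged birds. Without caged libraries 2 and 4 CHRNA6 stood at -0.94, and with the pituitary marker signal as a covariate at -0.64, with an unadjusted p above 0.05.

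CHRM2, an inhibitory muscarinic receptor, stood at 1.55, 0.763, 0.645 and 2.27 FPKM in caged and 2.24, 2.97, 2.50 and 2.17 in floor-water hypothalamus. Caged library 4 lay among the floor-water libraries, and the log2 fold change was -0.97 ± 0.37 (SE, adjusted p = 0.4884, edgeR). DRD4 stood at 0.171, 0.30, 0.275 and 0.317 FPKM in caged and 0.261, 0.585, 0.494 and 0.435 in floor-water hypothalamus, with floor-water library 1 among the caged ones. Its log2 fold change was -0.79 ± 0.35 (SE, adjusted p = 0.5361, edgeR). The more abundant receptors were near 0, with HTR1B at -0.12 ± 0.18, CHRNB2 at -0.09 ± 0.16, CHRNA4 at -0.11 ± 0.34 and DRD3 at 0.18 ± 0.32.

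In pituitary, too, no receptor was called by edgeR. Of 39 receptors tested (the 7 others, ADRB3, CHRND, CHRNG, HRH2, HRH4, HTR1D and HTR5A, had too few counts), 0 had an adjusted p under 0.05, as had 0 of 15582 genes (0%). At an unadjusted p under 0.05 there were 4 receptors (10.3%, beside 4.3% of all genes), 2 in each direction (beside 1.71% of all genes higher and 2.59% lower in caged birds). DESeq2 called 1 of 45 receptors, CHRNA6, beside 51 of 19634 genes. The fold change was below 0 for 22 of 39 receptors (56.4%, beside 51% of all genes), with a median of -0.04 beside -0.01 for all genes.

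CHRNA6 had 0, 4, 0 and 0 counts in caged pituitary and 23, 112, 99 and 141 in floor-water pituitary. Every floor-water library was above every caged library, and 3 of the 4 caged libraries had no count, which allows up to 3 counts each. In FPKM the floor-water libraries stood at 0.161, 0.702, 0.591 and 0.949, and caged library 2 at 0.0227. The summed counts were 375 and 4, a floor-water to caged ratio of 94.0 with a 95% exact interval of 36.4 to 347 that covers counting error only.

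The log2 fold change of CHRNA6 in pituitary was -6.37 ± 1.19 (SE, adjusted p = 0.9614) in edgeR and -6.54 (adjusted p = 5.075e-05) in DESeq2. It was -6.36 (adjusted p = 0.01606) when edgeR took the spread from all 16 libraries, a fit that called 3 of 17010 genes. The call thus depended on the test and the libraries fitted, while the direction did not. In the authors' deposited table CHRNA6 had a log2 fold of -6.70 and a q-value of 7.099e-05, and its p-value of 1.039e-08 was the 2nd smallest of 24263 genes. Without caged library 2, the only caged library with counts, the caged group is at 0 and the fitted fold has no finite size.

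Brain transcripts were measured beside this result. The libraries rich in oligodendrocyte markers were caged 2 and floor-water 2 and 4. Floor-water library 3 held the median oligodendrocyte marker at 0.364% of its hypothalamus mean and CHRNA6 at 54.9% of its own, and caged library 2 held them at 4.91% and 2.11%. Without the 3 marker-rich libraries, caged libraries 1, 3 and 4 were at 0 counts and floor-water libraries 1 and 3 at 23 and 99 (adjusted p = 0.9999, edgeR), with no finite fold. With the brain marker signal as a covariate the log2 fold change was -6.34. Floor-water libraries 1 and 2 also held smooth muscle and pericyte markers (3 of 6 found) at 328 and 327 FPKM in sum, against 8.33 to 31.0 in the other 6 pituitary libraries. Floor-water libraries 3 and 4, without that signal, held CHRNA6 at the 0.591 and 0.949 FPKM given above. The part of brain or muscle transcripts in the difference was not tested.

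**Figure D5:**
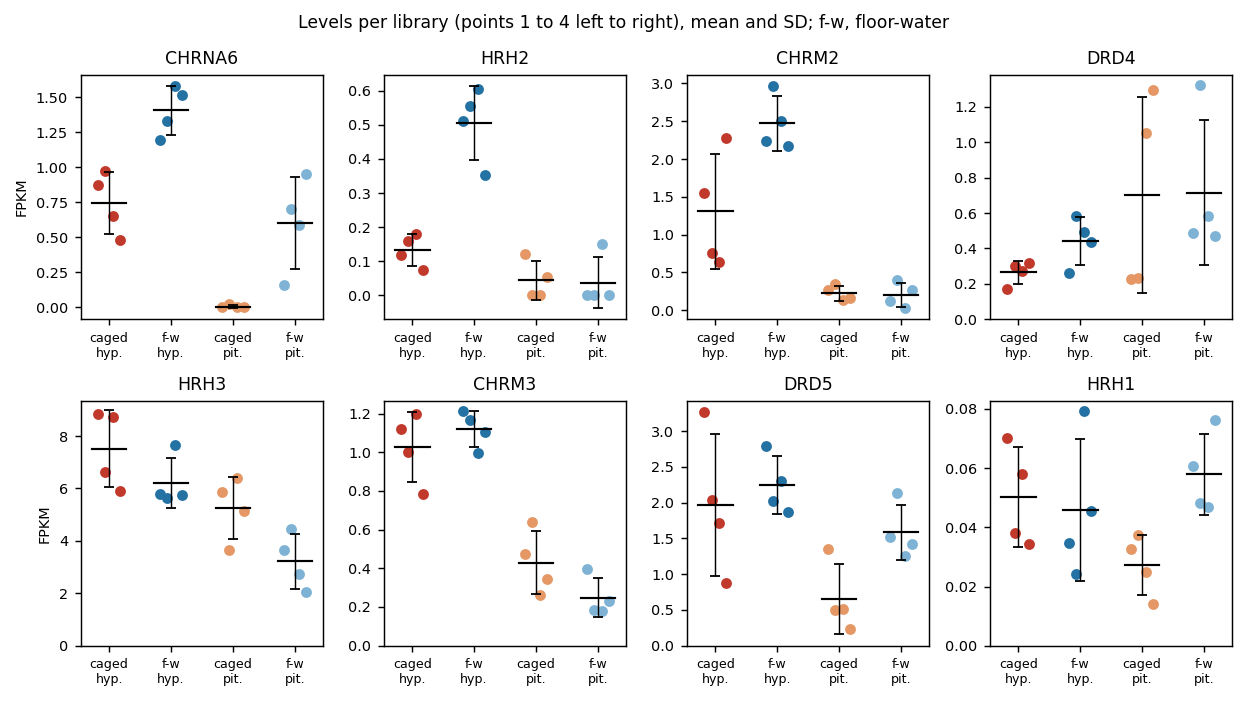
FPKM of 8 receptors in each library (points, libraries 1 to 4 from left to right), with the mean (line) and SD (bar) of each of the 4 groups. CHRNA6 is at or next to 0 in all 4 caged pituitary libraries, and its caged points lie below its floor-water points in hypothalamus as well.

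The other receptors with small p in pituitary were HRH3, DRD5 and CHRM3. HRH3 had 5.85, 3.64, 6.38 and 5.13 FPKM in caged and 3.67, 4.45, 2.72 and 2.04 in floor-water pituitary. Caged library 2 lay among the floor-water libraries, and the log2 fold change was 0.80 ± 0.26 (SE, adjusted p = 0.9996, edgeR). DRD5, which raises cyclic AMP, stood at 1.36, 0.499, 0.506 and 0.239 FPKM in caged and 1.52, 2.13, 1.26 and 1.42 in floor-water pituitary. Caged library 1 lay among the floor-water libraries, and without it the log2 fold change went from -1.18 ± 0.50 (SE, adjusted p = 0.9996, edgeR) to -1.86. CHRM3 stood at 0.475, 0.638, 0.263 and 0.344 FPKM in caged and 0.398, 0.185, 0.180 and 0.231 in floor-water pituitary. The groups overlapped, at a log2 fold change of 0.86 ± 0.37 (SE, adjusted p = 0.9996, edgeR).

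HRH1, a histamine receptor that acts through phospholipase C, had 22, 27, 19 and 8 counts in caged and 37, 34, 34 and 49 in floor-water pituitary. Its groups did not overlap, although its log2 fold change was -1.01 ± 0.56 (SE, adjusted p = 0.9996, edgeR). CHRNA6 and HRH1 were the tested receptors without overlap in pituitary, 5.13% of 39. Among all genes tested in pituitary, 2.64% were without overlap in either direction, and 1.35% were without overlap and lower in caged birds. DRD2, the receptor through which dopamine restrains prolactin in mammals, had a log2 fold change of 0.64 ± 0.32 (SE, adjusted p = 0.9996, edgeR), with caged library 3 far above the others. HTR1B stood at -0.81 ± 0.38 and CHRNA4 at -0.89 ± 0.45 (SE), each with adjusted p = 0.9996 in edgeR. For pituitary the authors' deposited table gave 6 of the 46 receptors an unadjusted p under 0.05 (beside 2.39% of its 24263 genes). It marked 2 as significant, CHRNA6 and DRD5 (beside 1.41%), and CHRNA6 alone had a q-value under 0.05 (beside 0.157%). In hypothalamus the authors' deposited table marked 0 receptors (beside 2.09% of genes) and gave CHRNA6 a log2 fold of -0.91 with a q-value of 0.7073.

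Whether housing acted differently on a receptor in each tissue was tested with an interaction term fitted to the 16 libraries. No receptor passed an adjusted p under 0.05 in edgeR (0 of 43, beside 0% of 17010 genes), and 2 had an unadjusted p under 0.05 (4.65%, beside 7.21% of all genes). For CHRNA6 the cage effect was more negative in pituitary by -5.42 ± 1.07 on the log2 scale (SE, adjusted p = 0.2373). It passed in DESeq2 (-5.56, adjusted p = 0.0001477) and in edgeR without caged pituitary library 2 (adjusted p = 0.03309), where the caged pituitary group is at 0 counts and the fold has no finite size. For this term DESeq2 called 142 of 20907 genes, and edgeR without that library 3 of 17381. For CHRM3 the difference was 1.03 ± 0.39 (SE, adjusted p = 0.543, edgeR), and 0.38 without the 5 libraries set aside for neighbouring tissue.

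In the lists of supply and signalling genes, 0 genes passed an adjusted p under 0.05 (edgeR) between housings in either tissue. In hypothalamus the median log2 fold changes were 0.14 for synthesis and transport, -0.06 for G proteins and effectors, -0.06 for receptor kinases and arrestins, and -0.03 for nicotinic assembly. At an unadjusted p under 0.05 (edgeR) there were 3 of 19, 1 of 28, 1 of 5 and 0 of 6 tested genes in these lists, beside 9.3% of all genes. The G protein gene GNB5 (-0.32 ± 0.09, SE) and the receptor kinase gene GRK5 (-0.32 ± 0.12) were lower in caged birds. The 3 synthesis and transport genes, named after their values were seen, were all higher in caged birds: the vesicular transporters SLC18A1 (1.45 ± 0.52) and SLC18A3 (1.82 ± 0.75) and the choline transporter SLC5A7 (1.66 ± 0.73). Their mean levels in caged and floor-water hypothalamus were 0.452 ± 0.184 and 0.158 ± 0.0849 FPKM for SLC18A1, 5.59 ± 6.44 and 1.56 ± 0.537 for SLC18A3, and 3.73 ± 3.06 and 1.16 ± 0.865 for SLC5A7 (SD, n = 4), so that for the latter pair the caged SD was near or above the mean. In pituitary the medians were -0.08, -0.05, 0.04 and -0.04. There 1 of 14, 1 of 28, 0 of 5 and 0 of 6 tested genes had an unadjusted p under 0.05 (edgeR), beside 4.3% of all genes. The G protein and effector gene was PLCB4, at a log2 fold change of -0.73 ± 0.30 (SE, adjusted p = 0.9996, edgeR). The synthesis and transport gene, also named after its values were seen, was SLC6A2, at 0.0234 ± 0.0358 FPKM in caged and 0.306 ± 0.236 in floor-water pituitary (SD, n = 4; log2 fold change -3.54 ± 1.3, adjusted p = 0.9996, edgeR).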

How the data were processed

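RNA sequencing of 16 duck libraries, 4 per tissue and housing, was analysed from the deposited tables. Whole-number counts and FPKM per gene were deposited by the authors, who list genes without signal at 0.0001 FPKM. Their own comparisons, deposited by the authors as tables, hold a fold (a ratio of mean FPKM), its log2 value, a p-value and a q-value. Per the submitters' processing notes, cutadapt, HISAT2, StringTie 1.3.4d and DESeq2 were used. The sources used here give no settings, build or strand use, so gene positions are not printed.

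Under R 4.3.3, counts were filtered with filterByExpr, scaled by TMM and tested by quasi-likelihood F tests in edgeR 4.0.16, with Benjamini-Hochberg adjustment over all genes and a threshold of 0.05. Housing was compared within each tissue, and tissues and their interaction over all 16 libraries. Tissue folds are pituitary over hypothalamus and housing folds caged over floor-water. Overlap between groups was judged in CPM with library totals scaled by TMM. SEs were taken from the fold and its test statistic. The alternatives were limma 3.58.1 on log2(FPKM + 1) or log2(FPKM + 0.1), DESeq2 1.42.0, and other scalings and filters (none, or a mean CPM of at least 1). Further alternatives were a robust fit, the library number as a block, marker signal as a covariate, and fits without single libraries or those set aside for neighbouring tissue. Scripts were tested on simulated data.

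Receptors were taken by symbol alone, but the choice of this gene group, the lists and the libraries set aside was made with earlier results of these data known. Levels are named for receptors with a mean of at least 1 FPKM in a group. Housing folds are named for those with an unadjusted p under 0.05 or no overlap, with some abundant receptors beside them. Tissue folds are named for called receptors without overlap, by size, and the others are given by family. List genes named between tissues are the 3 smallest p each way past the threshold. Between housings, where none passed, those with an unadjusted p under 0.05 were named after their values were seen. With at least 38853215 counts a library, the spread between libraries sets the precision of all but the lowest genes.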

Additional observations from a re-analysis of the deposited data

Results flagged for a closer look

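In 12 of 103 receptor and group combinations with 4 libraries tested, 1 library lay far from the other 3 in FPKM. Chance gives such a library in about 1 of 20 groups. In caged hypothalamus these were CHRM4 at 3.90 FPKM in library 4 (low), CHRNA2 at 14.5 in library 4 (high), CHRNA4 at 18.5 in library 3 (low) and CHRNA10 at 4.34 in library 2 (high). Library 4 is the one richest in pituitary transcripts and library 2 the one rich in TTR, and their part in these values was not tested. In floor-water hypothalamus they were ADRA1D at 3.80 in library 1 (high), CHRNB4 at 2.05 in library 4 (high), HRH3 at 7.65 in library 3 (high) and HTR5A at 0.728 in library 2 (low). In caged pituitary they were ADRA2C at 2.29 and DRD2 at 20.5 in library 3 and CHRNB2 at 35.3 in library 4, all high. In floor-water pituitary it was CHRNA7 at 2.37 in library 2 (high).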

How the results depend on the processing

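None of the 33 receptors called between tissues changed direction under any alternative run, and the number called was 26 to 35, or 29 to 33 with single libraries left out. The lowest, 26, came from floor-water or caged libraries alone, which hold fewer samples. Upper quartile scaling moved the median tissue fold of all genes to 0.15 and limma on log2(FPKM + 0.1) to -0.18, from 0.05, and the split of higher to lower calls was 9 to 24 and 4 to 29. Of the 33, 26 kept their call in floor-water libraries alone, 26 in caged libraries alone and 29 in each limma run. Calls higher in pituitary numbered 7 in the main fit, 5 in either housing alone and 4 in each limma run. HTR5A was among those that lost the call in floor-water libraries alone, and it had no adjusted p in DESeq2. In hypothalamus 0 receptors were called between housings in every alternative, with or without single libraries. In pituitary 1 was called with DESeq2 (beside 51 of 19634 genes) and with all 16 libraries in 1 fit (beside 3 of 17010), and 0 otherwise. For the interaction 1 was called with DESeq2 and 0 to 1 with single libraries left out, the 1 without caged pituitary replicate 2. Limma with a pseudocount of 1 gave smaller folds by construction, such as -0.65 for CHRNA6 in pituitary, and a mean CPM of at least 1 left CHRNA6 out there. Library numbers were not taken to pair samples: same-numbered tissues of 1 housing correlated at 0.073 to 0.195 over 13477 genes, each best with its own number, and 2 of 8 lay under 0.1. No label says whether a number marks the same bird in both tissues, and the main fits do not allow for such pairing. With the library number within each housing as a block, 34 receptors were called between tissues (31 of the 33 and 3 others) and 0 for the interaction. In the housing fits within a tissue, the block instead joined caged and floor-water libraries of the same number, which cannot share a bird. No label gives a reason for that pairing, and such libraries correlated at -0.083 to 0.296. It called 0 receptors between housings, and CHRNA6 in pituitary stood at -6.85 (adjusted p = 0.8676, edgeR). Depth limits receptors with few counts, such as HRH1, HRH2 and the pituitary values of HTR1D and HTR5A.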

Other observations

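The table lists 10 further genes by locus number that its annotation describes as receptors of these families. Because the receptors were chosen by symbol, none of them is counted above, although those with enough counts entered the same edgeR fits. The one described as the beta-2 adrenergic receptor averaged 7.64 ± 3.15 FPKM in caged hypothalamus, 8.90 ± 1.84 in floor-water hypothalamus, 5.39 ± 1.14 in caged pituitary and 6.93 ± 3.63 in floor-water pituitary (SD, n = 4). A second gene described as a histamine H3 receptor stood above HRH3, at 18.1 ± 4.16 FPKM in hypothalamus of caged birds, 17.4 ± 2.03 in that of floor-water birds, and 7.36 ± 1.85 and 7.16 ± 1.92 in pituitary. A second gene described as an alpha-7 nicotinic subunit averaged 4.45 ± 1.62 FPKM in the hypothalamus of caged birds and 16.2 ± 9.10 in that of floor-water birds, and 0.359 ± 0.339 and 0.562 ± 0.561 in pituitary (SD, n = 4). Its log2 fold change in hypothalamus, caged over floor-water, was -1.92 ± 0.51 (SE, adjusted p = 0.375, edgeR), the largest in size among these genes and not past the threshold. It was higher in hypothalamus than in pituitary, at -3.99 ± 0.70 (adjusted p = 0.000111, edgeR). A gene described as like the HTR7 receptor averaged 5.08 ± 0.696 in caged and 7.25 ± 1.28 in floor-water hypothalamus and 0.0699 ± 0.140 and 0.203 ± 0.201 in pituitary. Its caged over floor-water log2 fold change in hypothalamus was -0.56 ± 0.17 (SE, adjusted p = 0.40, edgeR). A second gene described as the serotonin receptor 1E averaged 1.25 ± 0.259 and 2.33 ± 1.34 FPKM in hypothalamus and 0.192 ± 0.223 and 0.185 ± 0.158 in pituitary. It overlaps HTR1E by 25 bases on the same strand. Its log2 fold change in hypothalamus was -0.95 ± 0.42 (SE, adjusted p = 0.536, edgeR). The alpha-7, HTR7-like and 1E genes each had an unadjusted p under 0.05 (edgeR) in hypothalamus, all lower in caged birds (beside 3.65% of all genes). No other tested gene of those listed by locus number did.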
